A study of Mus musculus with 12 samples.

Results

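The endothelial and arterial genes described here are 10 genes, of 23715 in the deposited data, that were chosen by name with results of both comparisons already known. They are *Pecam1* and *Cdh5* (junction proteins), *Kdr*, *Flt1*, *Tek* and *Tie1* (receptor tyrosine kinases), *Emcn* (a sialomucin), and *Gja4*, *Gja5* and *Efnb2* (arterial genes). The values of these genes are therefore given as a description. No p-value is printed for any of them, and only the number that passed the threshold is counted. Every member was found in the files, and all 10 passed the filter on low values, which was at least 1 FPKM (fragments per kilobase, normalised for sequencing depth) in at least 3 of the 12 mice.

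Total RNA from calvaria, the flat bones of the skull vault, of 12 newborn C57BL/6 mice was sequenced in 4 groups of 3 mice, and according to the methods the sampled bone was the parietal bone of P2 pups. The Med23 set holds 3 P-KO mice (*Med23*-/- in mesenchymal stem cells) and 3 P-Ctrl mice, which are labelled WT and which the methods call control littermates. MED23 is a subunit of Mediator, the complex that links transcription factors to RNA polymerase II. The deletion used floxed *Med23* and *Prx1-Cre*, a transgenic driver active in ventral and craniofacial mesenchyme rather than endothelium. The Runx2 set holds 3 R-Het mice (*Runx2*+/-, heterozygous for the master regulator of osteoblast differentiation) and 3 R-WT mice. No dates, litters or batches are given, and p-values below measure only the spread between these 12 mice.

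Blood vessels are lined by endothelial cells, which adhere through VE-cadherin (*Cdh5*) and PECAM-1 (*Pecam1*) and read growth factors through VEGF receptors (*Kdr*, *Flt1*) and the angiopoietin receptor system (*Tek*, *Tie1*). In bone, capillaries with high levels of PECAM-1 and endomucin (*Emcn*), called type H vessels, lie next to osteoprogenitors. Arterial endothelium is set apart by Notch signalling, by ephrin-B2 (*Efnb2*), the ligand whose receptor EphB4 marks veins, and by the gap junction proteins connexin 37 (*Gja4*) and connexin 40 (*Gja5*).

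The sequences around 2 of the results are shown first. *Pecam1* (chromosome 11, 106654213 to 106715281, GRCm38) has 2 RefSeq transcripts in the files, which differ in coding sequence by 1 exon of 57 bases, exon 14 of 15, at chr11:106671742-106671798 on the minus strand. The exon holds 19 codons, keeps the reading frame and lies in the part that codes for the cytoplasmic tail. It is printed in capitals, in the sense strand from GENCODE transcripts of GRCm38, with 12 coding bases on either side in lower case.
*Pecam1* with the exon: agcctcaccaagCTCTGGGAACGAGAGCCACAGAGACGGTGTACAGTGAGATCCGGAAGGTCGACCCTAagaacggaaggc
*Pecam1* without it: agcctcaccaagagaacggaaggc

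The promoters of *Gja4* and *Efnb2* are shown because the differences of these arterial members had opposite signs in both sets. RefSeq promoter windows of GRCm38.p6, from 250 bases before to 50 bases after the start, were matched for 8 of the 10 members. Capitals mark GGAAG on either strand, the core that ETS factors such as ERG and FLI1 bind. *Gja4* lies on chromosome 4 (127311420 to 127314039) and *Efnb2* on chromosome 8 (8617235 to 8661242). *Gja4* (chr4:127313990-127314289, minus strand) had 1 such core and *Efnb2* (chr8:8661193-8661492, minus strand) had none.
*Gja4*: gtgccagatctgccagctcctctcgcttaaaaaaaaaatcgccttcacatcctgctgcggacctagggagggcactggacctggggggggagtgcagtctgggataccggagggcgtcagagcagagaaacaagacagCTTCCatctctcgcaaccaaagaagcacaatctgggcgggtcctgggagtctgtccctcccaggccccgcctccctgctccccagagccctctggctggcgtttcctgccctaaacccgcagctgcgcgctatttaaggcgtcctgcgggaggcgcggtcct
*Efnb2*: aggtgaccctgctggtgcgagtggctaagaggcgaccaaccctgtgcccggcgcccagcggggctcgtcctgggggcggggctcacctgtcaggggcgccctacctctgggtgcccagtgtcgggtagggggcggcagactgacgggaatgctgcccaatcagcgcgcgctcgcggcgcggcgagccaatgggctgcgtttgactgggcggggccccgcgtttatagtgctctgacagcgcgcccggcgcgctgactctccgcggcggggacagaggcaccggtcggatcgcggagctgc
GGAAG was in 6 of the 8 windows, those of *Kdr*, *Flt1*, *Tie1*, *Emcn*, *Gja4* and *Gja5*, and in 71.4% of all 32817 promoter windows. The RUNX core TGTGGT was in 0 of the 8 and in 16.8% of all windows, and the RBPJ motif GTGGGAA was in 2 of the 8 (*Kdr* and *Tie1*) and in 6.39% of all windows. GTGGGAA and GGAAG share the letters GGAA, and the RBPJ match of *Tie1* overlaps an ETS match. These matches describe the letters of the windows and are no evidence of binding.

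The deposited files give no read counts. From the smallest values, the depth was estimated at 7900000 to 11700000 fragments per mouse, so that *Gja4* rested on roughly 47 to 164 fragments in each mouse, *Emcn* on 638 to 1366 and *Gja5* on only 13 to 41. Estimated depth was uneven between groups. It was 10200000 to 11400000 in P-Ctrl against 7900000 to 9080000 in P-KO mice, and 9720000 to 11700000 in R-WT against 8670000 to 9720000 in R-Het mice. The targeted genes could not check the genotypes. *Med23* had 5.32 ± 0.732 FPKM in P-Ctrl and 5.30 ± 0.425 in P-KO mice (SD, n = 3), and *Runx2* had 31.6 ± 5.39 in R-WT and 33.5 ± 2.76 in R-Het mice. The values cover whole transcripts, of which the *Med23* deletion takes exons 5 to 7 in part of the cells only, and the altered part of the *Runx2* allele is not given in the sources used here. Libraries with *Xist*, and hence from females, were found only among controls (2 of 3 in P-Ctrl, 1 of 3 in R-WT). Summed skeletal muscle genes ranged from 26.3 to 1550 FPKM in P-Ctrl, 665 to 4650 in P-KO, 2140 to 6390 in R-WT and 30.9 to 209 in R-Het mice. Summed osteoblast genes ranged from 42600 to 44300 in P-Ctrl against 20700 to 27900 in P-KO, and from 34600 to 39500 in R-WT against 24900 to 32100 in R-Het mice. The part of sex, depth, muscle and bone content in the results below was not tested. In bulk RNA, fewer endothelial cells and less RNA per endothelial cell cannot be told apart.

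The label was checked against the levels. All 3 junction and type H genes were well detected, with means over the 12 mice of 42.0 FPKM for *Emcn*, 19.6 for *Pecam1* and 17.2 for *Cdh5*. The receptors followed with 7.53 for *Tek*, 6.79 for *Tie1*, 4.70 for *Kdr* and 1.79 for *Flt1*, and the arterial genes with 6.30 for *Efnb2*, 5.61 for *Gja4* and 0.882 for *Gja5*. On this per-length scale the levels of *Pecam1* and *Cdh5*, and those of *Tek*, *Tie1*, *Efnb2*, *Gja4* and *Kdr*, were neighbours whose ranges over the mice overlapped. *Efnb2* is also made by osteoblasts and mural cells, so it does not read endothelium alone.

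**Figure D1:**
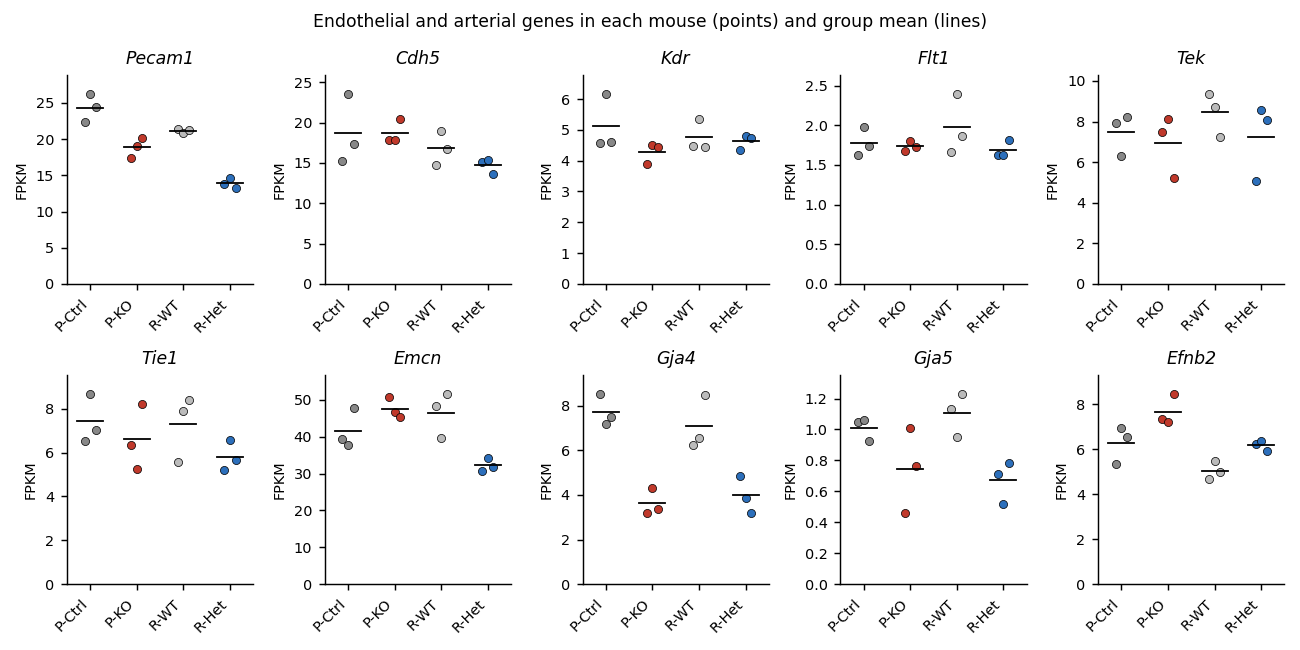
FPKM of each of the 10 members (vertical axes, each from 0) in the 3 mice of P-Ctrl, P-KO, R-WT and R-Het (points) with the group mean (lines). The mutant mice lie below all their control littermates for *Gja4* and *Pecam1* in both sets and above them for *Efnb2*.

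*Gja4* was the member with the largest difference in both sets. In the Med23 set it had 8.53, 7.19 and 7.49 FPKM in the P-Ctrl mice and 3.18, 4.31 and 3.36 in the P-KO mice. The mutant mean was 46.7% of the control mean (3.62 ± 0.606 against 7.74 ± 0.706 FPKM, SD, n = 3), and the groups were far from overlapping. In the Runx2 set *Gja4* had 6.25, 6.54 and 8.47 FPKM in the R-WT mice and 4.87, 3.88 and 3.21 in the R-Het mice. The R-Het mean was 56.2% of the R-WT mean (3.98 ± 0.835 against 7.09 ± 1.20 FPKM), again without overlap, although the nearest mice of the 2 groups were closer. On the log2(FPKM + 1) scale the differences were -0.93 ± 0.12 (SE) in the Med23 set and -0.70 ± 0.15 in the Runx2 set. Of the 13059 genes tested, 0.659% had a lower log2 fold change than *Gja4* in the Med23 set and 2.52% in the Runx2 set.

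*Gja4* did not follow the 7 pan-endothelial members (*Pecam1*, *Cdh5*, *Kdr*, *Flt1*, *Tek*, *Tie1* and *Emcn*) in the Med23 set. The mean log2(FPKM + 1) of these 7 genes was 3.41, 3.60 and 3.52 in P-Ctrl mice and 3.40, 3.42 and 3.44 in P-KO mice, a difference of -0.09, and the groups overlapped. The difference was 0.01 when the P-Ctrl mice with *Xist* were left out, which leaves 1 P-Ctrl mouse. It was -0.18 with the same FPKM sum in each mouse and -0.14 to -0.04 with any 1 mouse left out. As the difference was small and the groups overlapped, no direction is read from it. *Gja4* minus this mean was -0.15, -0.57 and -0.43 in P-Ctrl mice and -1.34, -1.01 and -1.32 in P-KO mice. *Gja4* thus lay lower relative to the pan-endothelial genes in all 3 P-KO mice, by 0.84 on the log2 scale (-1.22 ± 0.18 against -0.39 ± 0.21, SD).

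In the Runx2 set the mean of the 7 pan-endothelial genes was lower as well. It was 3.44, 3.57 and 3.51 on the log2 scale in R-WT mice and 3.13, 3.32 and 3.24 in R-Het mice, without overlap and with a difference of -0.27. Of these genes, only *Pecam1* (-0.57) and *Emcn* (-0.51) were lower without overlap. *Cdh5*, *Kdr*, *Flt1*, *Tek* and *Tie1* overlapped, with log2 fold changes from -0.27 to -0.03. *Gja4* minus this mean was -0.58, -0.65 and -0.27 in R-WT mice and -0.58, -1.03 and -1.17 in R-Het mice. The gap between *Gja4* and the other genes widened by 0.43 (-0.93 ± 0.31 against -0.50 ± 0.21, SD), but R-Het mouse 1 lay among the R-WT mice.

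**Figure D2:**
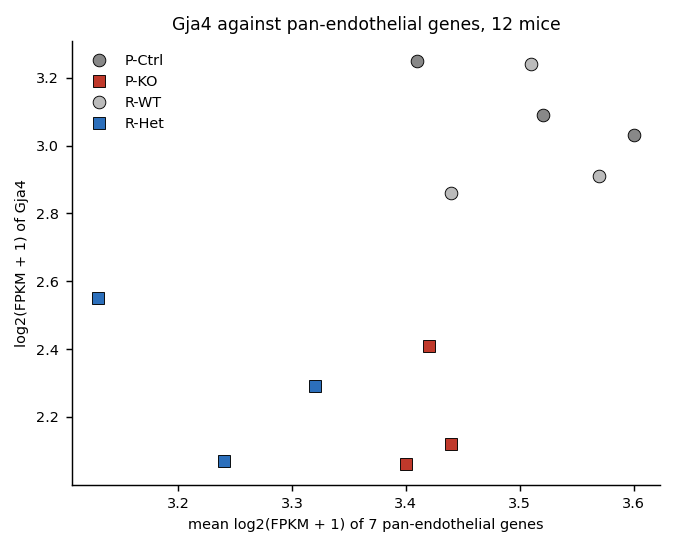
Level of *Gja4* (vertical axis, log2(FPKM + 1)) against the mean level of the 7 pan-endothelial members (horizontal axis, log2(FPKM + 1)), 1 point per mouse, with axes that do not start at 0. The P-KO mice lie below the P-Ctrl mice, at pan-endothelial levels of 3.40 to 3.44 against 3.41 to 3.60, whereas the R-Het mice lie both lower and further left (3.13 to 3.32).

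The ratio of these 2 arterial members shows the same mice on a linear scale. The FPKM of *Gja4* divided by that of *Efnb2* was 1.60, 1.04 and 1.14 in P-Ctrl mice and 0.434, 0.596 and 0.397 in P-KO mice. It was 1.33, 1.20 and 1.70 in R-WT mice and 0.778, 0.607 and 0.543 in R-Het mice. *Gja4* was the higher of both genes in all 6 control mice and the lower in all 6 mutant mice. Each gene already differed without overlap in both sets, in opposite directions. The ratio therefore had to separate the groups and adds no support. *Gja4* relative to *Cdh5* was 55.8%, 30.5% and 43.2% in P-Ctrl and 17.8%, 24.3% and 16.4% in P-KO mice. It was 42.2%, 34.6% and 50.8% in R-WT and 32.3%, 25.2% and 23.6% in R-Het mice, which did not overlap but came close. Relative to *Pecam1*, R-Het mouse 1 (35.4%) lay within the R-WT range of 29.2% to 39.9%.

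*Efnb2*, the arterial ephrin, was higher in mutant mice. It had 5.33, 6.94 and 6.55 FPKM in P-Ctrl mice and 7.33, 7.23 and 8.47 in P-KO mice. It had 4.70, 5.47 and 4.98 FPKM in R-WT mice and 6.26, 6.39 and 5.91 in R-Het mice. The mutant mean was 122% of the control mean in each set, and the log2 fold changes of 0.26 ± 0.12 and 0.25 ± 0.09 did not pass the threshold. *Gja5*, the other arterial connexin, lay near the detection limit and had 1.05, 1.06 and 0.924 FPKM in P-Ctrl, 0.461, 1.01 and 0.762 in P-KO, 1.13, 0.951 and 1.23 in R-WT and 0.710, 0.520 and 0.785 in R-Het mice. The R-Het mice all lay below the R-WT mice, while P-KO mouse 2 lay within the P-Ctrl range.

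*Pecam1* was lower in both sets without overlap. It had 22.4, 26.3 and 24.4 FPKM in P-Ctrl mice against 17.4, 19.1 and 20.2 in P-KO mice, and 21.4, 20.9 and 21.2 in R-WT mice against 13.8, 14.6 and 13.3 in R-Het mice. The mutant means were 77.7% and 65.6% of those of the controls, with log2 fold changes of -0.35 ± 0.10 and -0.57 ± 0.08. *Cdh5*, the partner at the same junctions, did not show this: it had 15.3, 23.6 and 17.3 FPKM in P-Ctrl and 17.9, 17.8 and 20.5 in P-KO mice (99.8% of control), and 14.8, 18.9 and 16.7 in R-WT and 15.1, 15.4 and 13.6 in R-Het mice (87.5% of control).

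The 2 transcripts of *Pecam1*, whose sequences are given above, differed in how far they were lower. The transcript with the 57-base exon had 12.6, 8.82 and 12.8 FPKM in P-Ctrl mice and 7.07, 6.01 and 6.72 in P-KO mice. It had 8.20, 8.18 and 8.54 FPKM in R-WT mice and 4.98, 4.69 and 3.78 in R-Het mice, so that it was lower without overlap in both sets, with log2 fold changes of -0.69 and -0.77. The transcript without the exon had 9.77, 17.4 and 11.6 FPKM in P-Ctrl, 10.4, 13.1 and 13.4 in P-KO, 13.2, 12.8 and 12.7 in R-WT and 8.77, 9.93 and 9.55 in R-Het mice. It overlapped in the Med23 set (log2 fold change -0.03) and was lower in the Runx2 set (-0.41). The share of *Pecam1* FPKM held by the transcript with the exon was 47.5% ± 12.2 in P-Ctrl, 35.1% ± 4.80 in P-KO, 39.2% ± 0.998 in R-WT and 32.2% ± 3.94 in R-Het mice (SD, n = 3). These splits are the deposited estimates of isoform levels, whose own error is not given, and the comparison by transcript was added after the values were seen.

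**Figure D3:**
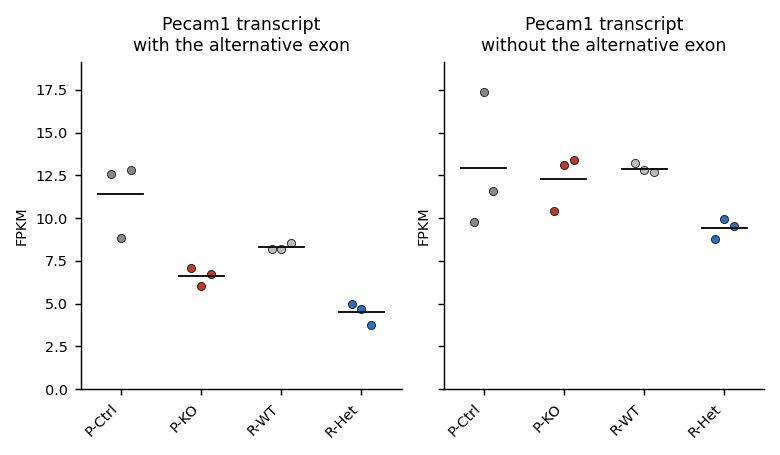
FPKM (vertical axis, from 0) of the *Pecam1* transcripts with and without the 57-base exon in each mouse (points) and group means (lines). The transcript with the exon is lower in all mutant mice than in their littermates, whereas the other overlaps between P-Ctrl and P-KO.

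*Emcn* was the member whose differences were least alike between the sets. It had 39.3, 37.7 and 47.7 FPKM in P-Ctrl and 50.8, 46.6 and 45.2 in P-KO mice, which overlapped (log2 fold change 0.19 ± 0.11). It had 48.2, 39.7 and 51.6 FPKM in R-WT and 30.8, 34.1 and 31.7 in R-Het mice, which did not overlap (-0.51 ± 0.11). The transcript with a further 39-base coding exon held 80.8% ± 2.92 of *Emcn* FPKM in P-Ctrl, 85.7% ± 12.4 in P-KO, 78.1% ± 7.69 in R-WT and 86.4% ± 9.26 in R-Het mice (SD, n = 3), and the other was listed at 0 in P-KO mouse 3, so no shift between them could be read. In R-Het mice both genes that define type H capillaries had lower means, at 65.6% for *Pecam1* and 69.3% for *Emcn*, and in P-KO mice *Pecam1* alone did.

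The 4 receptors varied within a narrow range. *Kdr*, the main VEGF receptor of endothelium, had 4.58, 6.18 and 4.61 FPKM in P-Ctrl and 3.88, 4.52 and 4.45 in P-KO mice, which just failed to overlap, and 4.49, 5.37 and 4.43 in R-WT and 4.36, 4.80 and 4.75 in R-Het mice. *Flt1*, the decoy VEGF receptor, ranged from 1.62 to 1.98 FPKM in the 6 mice of the Med23 set and from 1.62 to 2.40 in those of the Runx2 set. *Tek* had 7.92, 6.31 and 8.24 in P-Ctrl, 7.50, 8.13 and 5.24 in P-KO, 9.38, 8.72 and 7.25 in R-WT and 5.06, 8.56 and 8.06 in R-Het mice. *Tie1* had 6.54, 8.68 and 7.05, then 6.37, 5.26 and 8.21, then 5.57, 7.89 and 8.41, and lastly 5.21, 6.58 and 5.68 FPKM in the same order of groups. Apart from *Kdr* in the Med23 set, the groups of every receptor overlapped, with log2 fold changes for all 4 between -0.27 and -0.02.

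**Figure D4:**
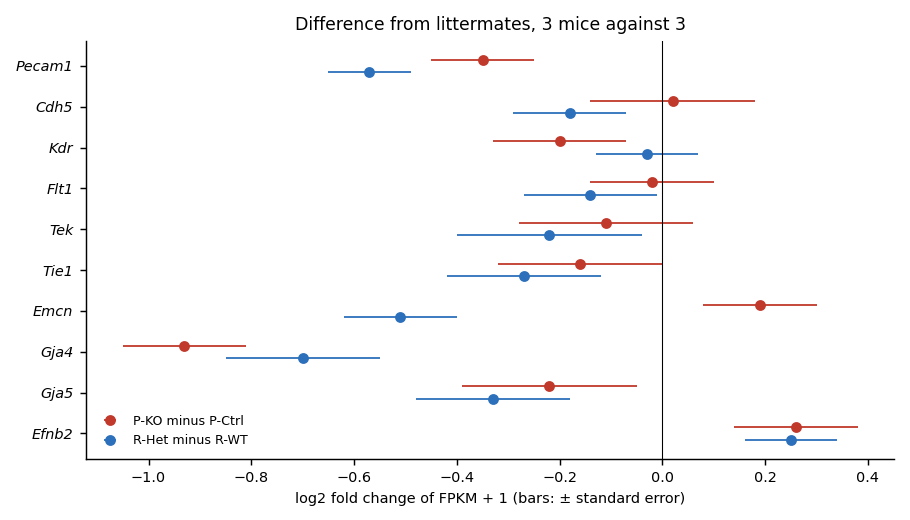
Log2 fold change of each member (points, horizontal axis, on log2(FPKM + 1), bars ± SE) in P-KO against P-Ctrl (red) and R-Het against R-WT (blue), 3 mice against 3. *Gja4* lies farthest to the left in both comparisons (-0.93 and -0.70), *Efnb2* lies to the right in both, and *Emcn* has opposite signs (0.19 and -0.51).

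Counted over the 10 members, 1 was called lower in each set at an adjusted p under 0.05 (limma, Benjamini-Hochberg over all tested genes), namely *Gja4* in the Med23 set and *Pecam1* in the Runx2 set, and 0 were called higher. At an unadjusted p under 0.05, 2 were lower and 0 higher in the Med23 set, and 3 lower and 1 higher in the Runx2 set. Of all 13059 tested genes, 2781 and 2013 had such a p in either direction in the Med23 and Runx2 sets. Among all tested genes, 0.559% were called lower and 1.01% higher in the Med23 set, and 1.49% and 0.398% in the Runx2 set. The Med23 split depended on scaling, with 73 genes lower and 132 higher as deposited but 86 lower and 57 higher after median-ratio scaling. Groups that did not overlap were found for 3 members lower (*Pecam1*, *Kdr*, *Gja4*) and 1 higher (*Efnb2*) in the Med23 set, against 7.68% and 19.6% of all genes. In the Runx2 set they were found for 4 members lower (*Pecam1*, *Emcn*, *Gja4*, *Gja5*) and 1 higher (*Efnb2*), against 10.4% and 10.7% of all genes. The median log2 fold change of the members was -0.13 and -0.25, beside 0.06 and 0.02 over all genes. Since the members were chosen with these comparisons in view, nothing is read from these counts. The call of *Gja4* in the Med23 set was lost when any 1 of the 6 mice was left out (log2 fold change -1.03 to -0.86) and when both P-Ctrl mice with *Xist* were left out (-1.05). That of *Pecam1* in the Runx2 set was lost without R-WT mouse 1, R-WT mouse 3 or R-Het mouse 1, with a log2 fold change of -0.61 to -0.55 over all 6 omissions. The difference between the 2 sets was called for 0.153% of all genes and for 0 members. At an unadjusted p under 0.05, it had 1 of the 10 members, beside 1992 of all 13059 tested genes.

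Within groups, the pan-endothelial members did not vary together as a whole. *Cdh5* had Pearson r from 0.65 to 0.80 with *Pecam1*, *Kdr*, *Flt1* and *Tie1*, but -0.50 with *Tek* and -0.45 with *Emcn*. The arterial *Efnb2* had 0.89 with *Cdh5* and -0.45 with *Tek*. After removal of the group means, the median Pearson correlation over the 12 mice was 0.18 among the 21 pairs of these 7 genes (from -0.67 to 0.80) and -0.16 between *Gja4* and each of them (from -0.34 to 0.08). The genes most like *Gja4* among 8761 candidates were *H1f2*, *Dhrs11*, *Gcdh*, *Cmc4* and *Ccdc59*, with Pearson r from 0.862 to 0.879 and Spearman rho from 0.776 to 0.923, and r from 0.761 to 0.796 without the 2 most distant mice. Those most like the pan-endothelial mean were *Cdc20*, *Adam15*, *Kifc1*, *Pimreg* and *Tubg1* (r from 0.880 to 0.918, rho from 0.874 to 0.951). With the group means left in, the gene most like *Gja4* was *Hey1* (r = 0.957, rho = 0.867). These values are the highest of 8761 over mice that share group and depth, and are given as a description.

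The other vessel genes were read from 10 lists, of which 99 genes were tested once each. Of these, 4 were called lower and 7 higher in the Med23 set, against 0.559% and 1.01% of all genes, and 2 lower and 0 higher in the Runx2 set, against 1.49% and 0.398%. The Med23 split depended on scaling, with 4 lower and 4 higher after median-ratio scaling, where *Clec14a*, *Angpt1* and *Sema3a* were not called, and 3 lower and 2 higher with the same FPKM sum in each mouse, where *S1pr1*, *Nr2f2* and *Tagln* were not called either. Without the libraries with *Xist*, 0 of the 99 were called by limma in either set, with 1 P-Ctrl and 2 R-WT mice remaining. At an unadjusted p under 0.05, limma then had 28 of the 99 in the Runx2 set, beside 33 with all mice. The share of all genes in that fit was not counted, so nothing is read from this number. The difference between the sets was called for 0 of the 99. At an unadjusted p under 0.05 (limma), it had 15 of the 99, beside 1992 of all 13059 tested genes, a similar share. With any 1 mouse left out, the calls below were lost, apart from *Vwf* without P-Ctrl mouse 1 and *Pdgfb* without R-Het mouse 1. A fit without moderation of the spread called 0 of them in each comparison. Of the 99, none was called higher in the Runx2 set. At an unadjusted p under 0.05 with all mice (limma), 18 of them were lower and 15 higher there. Of all 13059 tested genes, 2013 had such a p in either direction.

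Of the other arterial genes, 1 of 14 tested was called lower in each set, and it was the same gene, *Hey1*. *Hey1* codes for a transcription factor induced by Notch in arterial endothelium, and osteoblasts express it too. It had 12.3, 13.9 and 12.6 FPKM in P-Ctrl against 5.81, 8.24 and 6.01 in P-KO mice (log2 fold change -0.87 ± 0.13, adjusted p = 0.0359, limma). It had 13.3, 11.2 and 13.3 FPKM in R-WT against 8.67, 7.91 and 6.39 in R-Het mice (-0.65 ± 0.12, adjusted p = 0.0467, limma). *Hey1* was thus lower without overlap in both sets, as *Gja4* was. *Dll4*, the Notch ligand of arterial and tip cells, had -0.83 ± 0.21 in the Med23 set (adjusted p = 0.0936, limma) and -0.34 ± 0.15 in the Runx2 set. *Fbln5*, an elastic fibre gene, had the largest positive value of the list in the Runx2 set, at 0.43 ± 0.11. The list's median was -0.20 in the Med23 set and -0.03 in the Runx2 set.

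Venous and capillary genes had 2 of 9 called higher in the Med23 set and none called in the Runx2 set. *Nr2f2*, which codes for the venous factor COUP-TFII and is also expressed in mesenchyme, had 2.84, 3.40 and 3.08 FPKM in P-Ctrl and 6.50, 6.19 and 5.43 in P-KO mice (log2 fold change 0.78 ± 0.11, adjusted p = 0.0314, limma). *Vwf*, the von Willebrand factor of endothelium and platelets, had 1.34, 1.78 and 2.33 FPKM in P-Ctrl and 5.73, 5.71 and 6.67 in P-KO mice (1.33 ± 0.15, adjusted p = 0.0211, limma). Both genes rose in P-KO mice, where *Cdh5* was at 99.8%, *Kdr* at 83.6% and *Pecam1* at 77.7% of control. The list as a whole showed no shift, with medians of 0.07 and 0.02 in the 2 sets, beside 0.06 and 0.02 over all genes. *Nr2f2* and *Vwf* had 0.02 ± 0.16 and 0.41 ± 0.20 in the Runx2 set, and the differences between sets were not called (adjusted p = 0.108 and 0.134, limma). Of 5 platelet genes tested, none was called by limma in either set. In the Med23 set *Pf4* had 0.22 ± 0.20, and in the Runx2 set *Gp9* was lower without overlap (-0.68 ± 0.16, adjusted p = 0.0842, limma). *Aplnr*, the apelin receptor of veins and capillaries, had -0.78 ± 0.18 in the Runx2 set (adjusted p = 0.0766, limma).

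Of 24 other pan-endothelial genes, 1 was called lower and 1 higher in the Med23 set and none in the Runx2 set. *S1pr1*, the sphingosine-1-phosphate receptor, fell from 43.7, 43.8 and 45.5 FPKM in P-Ctrl to 26.3, 33.8 and 28.8 in P-KO mice (log2 fold change -0.57 ± 0.10, adjusted p = 0.0481, limma). *Clec14a*, an endothelial lectin, rose from 8.03, 8.35 and 7.95 to 14.5, 12.6 and 11.4 FPKM (0.60 ± 0.10, adjusted p = 0.0437, limma). In the Runx2 set *Icam2*, an adhesion molecule, had the largest value, at -0.73 ± 0.15 (adjusted p = 0.0612, limma), followed by *Gpihbp1* at -0.54 ± 0.21. The list's medians of -0.16 and -0.23 were close to those of the members.

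**Figure D5:**
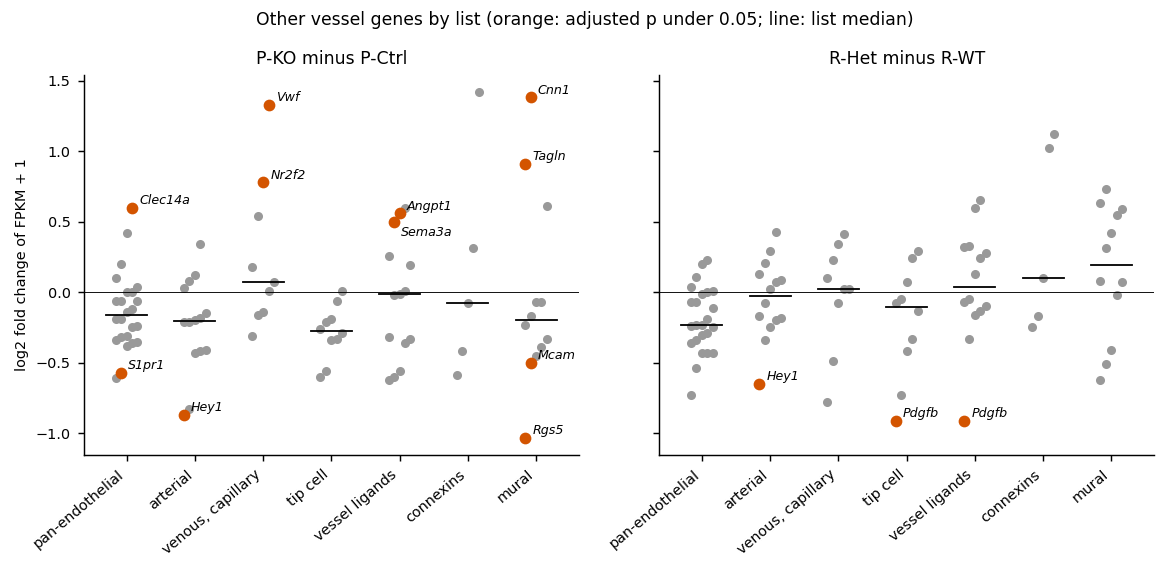
Log2 fold change on log2(FPKM + 1) (vertical axis) of every tested gene of 7 vessel lists in P-KO against P-Ctrl (left) and R-Het against R-WT (right), with list medians (lines) and genes called at an adjusted p under 0.05 in orange. *Hey1* is orange on both sides (-0.87 and -0.65), and *Vwf* and *Nr2f2* stand above the venous and capillary list on the left.

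Mural cells, the pericytes and smooth muscle cells around vessels, had 2 of 12 genes called lower and 2 higher in the Med23 set and none in the Runx2 set. The pericyte gene *Rgs5* fell from 90.3, 84.1 and 96.8 FPKM in P-Ctrl to 54.5, 42.9 and 35.4 in P-KO mice (log2 fold change -1.03 ± 0.15, adjusted p = 0.0327, limma). *Mcam*, which endothelium shares with pericytes, fell by 0.50 on the log2 scale (SE 0.08, adjusted p = 0.0359, limma). The contractile genes moved the other way, with *Tagln* at 0.91 ± 0.14 (adjusted p = 0.0339, limma) and *Cnn1* at 1.38 ± 0.21 (adjusted p = 0.0359, limma). In R-Het mice the same 4 genes had values of the same sign, -0.62 ± 0.14, -0.41 ± 0.09, 0.73 ± 0.18 and 0.59 ± 0.20, none of them called. Other pericyte genes were divided in sign there. *Abcc9* had 0.42 ± 0.08 (adjusted p = 0.0528, limma), *Ndufa4l2* 0.63 ± 0.17, *Cspg4* 0.31 ± 0.14 and *Kcnj8* 0.08 ± 0.13. The R-Het mice lay above all R-WT mice for *Abcc9* and *Ndufa4l2*. In the same list *Higd1b* shared the sign of *Rgs5*, at -0.51 ± 0.15 and lower without overlap, and *Pdgfrb* had -0.02 ± 0.15.

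Among the vessel ligands, 2 of 15 were called higher in the Med23 set and 1 lower in the Runx2 set. *Angpt1*, the activating ligand of the receptor that *Tek* codes for, rose from 11.6, 12.6 and 13.8 FPKM in P-Ctrl to 19.3, 19.8 and 18.4 in P-KO mice (log2 fold change 0.56 ± 0.09, adjusted p = 0.0388, limma). *Sema3a*, a guidance factor, rose by 0.50 ± 0.09 (adjusted p = 0.0495, limma). *Pdgfb*, by which endothelium recruits pericytes and which also stands on the tip cell list, fell from 14.3, 19.0 and 18.4 FPKM in R-WT to 11.0, 7.51 and 7.73 in R-Het mice (-0.91 ± 0.16, adjusted p = 0.0391, limma). In P-KO mice it had -0.60 ± 0.14 (adjusted p = 0.0831, limma). *Vegfa*, the ligand of *Kdr* and *Flt1*, had -0.32 ± 0.12 and -0.05 ± 0.13 in the 2 sets.

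The remaining lists held no called gene apart from *Pdgfb*, which was 1 of 10 tip cell genes in the Runx2 set. In the tip cell list *Pgf* had -0.56 ± 0.16 in the Med23 set and *Kcne3* -0.73 ± 0.28 in the Runx2 set. Of 5 other connexins, *Gjb6* had 1.42 ± 0.29 in the Med23 set (adjusted p = 0.0617, limma) and 1.12 ± 0.31 in the Runx2 set, and *Gjb2* had 1.02 ± 0.27 in the Runx2 set. *Gja1*, the connexin of osteoblasts, had -0.42 ± 0.13 and -0.25 ± 0.10, lower without overlap in both sets. Among 10 tested receptors and partners of vessel ligands, *Robo4* had -0.61 ± 0.16 and *Robo1* 0.46 ± 0.14 in the Med23 set, and *Ephb2* (0.28 ± 0.17) and *Robo4* (-0.23 ± 0.12) led in the Runx2 set. *Ephb4*, the receptor of ephrin-B2, had 0.18 ± 0.14 and 0.10 ± 0.10. Of 11 hypoxia genes, *Egln3* had 0.61 ± 0.14 (adjusted p = 0.0771, limma) and *Ndrg1* -0.34 ± 0.13 in the Med23 set, and *Pgk1* (-0.30 ± 0.12) and *Adm* (0.29 ± 0.15) led in the Runx2 set. Lymphatic genes were too low for all but 2 of 7 to be tested, *Lyve1* (0.39 ± 0.28 and 0.37 ± 0.22) and *Pdpn* (0.15 ± 0.14 and 0.01 ± 0.08).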

How the data were processed

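Total RNA of calvaria from 12 mice, 3 per group, was sequenced. The authors deposited 1 number for each RefSeq transcript in each mouse, read here as FPKM because the numbers are fractional and their per-mouse sums range from 891329 to 1068933. The submitters' processing notes name Bowtie 0.12.8 and build mm10. The program that estimated isoforms is not given in the sources used here. Transcript FPKM were summed by gene symbol (29835 transcripts matched by RefSeq, 180 by GENCODE, 396 unmatched), which gave 23715 genes, of which 13059 were tested on log2(FPKM + 1), a scale that understates the change of low genes. P-KO with P-Ctrl and R-Het with R-WT were each fitted by limma 3.58.1 (R 4.3.3) over 6 mice with a mean-variance trend and Benjamini-Hochberg adjustment, and the difference between sets was an interaction contrast over 12 mice. The fit was tested on simulated data. Python 3.11.15, pandas 2.3.3, numpy 2.4.6 and matplotlib 3.10.9 were used.

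The members and lists were chosen with earlier results of these data known. All members are given per mouse. Of each other list, genes past the threshold are named, otherwise the 2 with the largest absolute log2 fold change per set; the 5 genes most alike were taken among those with a mean of at least 5 FPKM. *Dll4*, *Fbln5*, *Icam2*, *Gpihbp1*, *Aplnr*, *Pgf*, *Kcne3*, *Ephb4*, *Vegfa*, *Gja1*, *Pf4*, *Gp9*, *Abcc9*, *Ndufa4l2*, *Cspg4*, *Kcnj8*, *Higd1b*, *Pdgfrb*, *Nog*, *Cd36*, *Bnip3* and *Unc5b* were named after their values were seen. A gene that the rule selected is not reported here. Depth was estimated from the values that 1 fragment is worth and is rough. Alternatives were a pseudocount of 0.1, no filter, a joint fit of 12 mice, a replicate block, 2 scalings, no moderation, the most abundant transcript, libraries without *Xist* and each mouse left out.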

Additional observations from a re-analysis of the deposited data

Results flagged for a closer look

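For 9 genes among the 10 members and 99 other vessel genes, all 3 mutant mice of one set lay above their control mean while all 3 of the other lay below theirs. How many of all 13059 tested genes do the same was not counted, so nothing about vessel genes is read from this number. P-KO mice were on the higher side for *Emcn*, *Angpt1*, *Cd36*, *Pgk1* and *Bnip3*. The difference between the log2 fold changes of both sets was 0.70 for *Emcn*, a member, for which no p-value is printed. By the interaction contrast over 12 mice (limma), it was 0.66 for *Angpt1* (adjusted p = 0.071), 1.03 for *Cd36* (adjusted p = 0.124, limma), 0.63 for *Pgk1* (adjusted p = 0.121, limma) and 0.41 for *Bnip3* (adjusted p = 0.369, limma).

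P-KO mice were on the lower side for *Nog*, *Ndufa4l2*, *Unc5b* and *Ndrg1*. The difference was -1.27 for *Nog*, the BMP antagonist noggin (adjusted p = 0.0588, limma), -0.96 for *Ndufa4l2* (adjusted p = 0.227, limma), -0.49 for *Unc5b* (adjusted p = 0.349, limma) and -0.47 for *Ndrg1* (adjusted p = 0.21, limma). None of these differences passed the threshold with all mice. That of *Angpt1* passed without R-WT mouse 2 (0.78, adjusted p = 0.0332, limma), and that of *Nog* without R-WT mouse 2 (-1.43, adjusted p = 0.0332, limma) and without P-Ctrl mouse 1 (-1.40, adjusted p = 0.0261, limma).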

How the results depend on the processing

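*Gja4* kept a negative log2 fold change under every alternative tried (-1.08 to -0.86 in the Med23 set, -0.83 to -0.58 in the Runx2 set), but its call did not hold throughout. The pseudocount of 0.1 gave -1.08 in the Med23 set. Without the libraries with *Xist*, *Gja4* minus the pan-endothelial members was -1.07, and the pan-endothelial mean was 0.01, against -0.18 with the same FPKM sum in each mouse. Counts of calls moved far more. In the Med23 set, 205 genes were called. This was 1 with no filter, 717 with all 12 mice in 1 fit, 107 with the same FPKM sum, 0 without moderation, 57 with the most abundant transcript, 0 without the *Xist* libraries, and 0 to 35 with 1 mouse left out. In the Runx2 set, 247 genes were called. This was 5 with no filter, 95 with all mice in 1 fit, 1 without moderation, 111 with the most abundant transcript, 34 without the *Xist* library, and 34 to 169 with 1 mouse left out. For the difference between sets, 20 genes became 6 with no filter, 37 with the same FPKM sum, 1 without moderation, 11 with the most abundant transcript, 1 without *Xist* libraries, and 2 to 164 with 1 mouse left out. Of the members, the 1 called in the Med23 set became 2 with all mice in 1 fit and 0 with no filter, without moderation, without *Xist* libraries and with any 1 mouse left out. The 1 called in the Runx2 set became 0 with no filter, without moderation, with the most abundant transcript and without the *Xist* library, and 0 to 2 with 1 mouse left out. Of the 99 other vessel genes, the 11 called in the Med23 set became 0 with no filter, without moderation and without *Xist* libraries, 5 with the same FPKM sum, 1 with the most abundant transcript and 0 to 1 with 1 mouse left out. The 2 called in the Runx2 set became 0 with no filter, the same FPKM sum, no moderation, the most abundant transcript or no *Xist* library, and 0 to 1 with 1 mouse left out. Of the 5 genes most like *Gja4*, and of the 5 most like the pan-endothelial mean, 0 stayed when group means were left in. More tested genes, fewer mice or weaker pooling of the spread are part of how several of these alternatives are built, and for the others the cause was not tested. Where 1 P-Ctrl mouse remained, it is assumed to vary like the P-KO mice.

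The replicate numbers were not shown to pair the mice, since the correlation of same-numbered deviations was 0.18, 0.259 and 0.0527 in the Med23 set and 0.00482, -0.0474 and -0.0836 in the Runx2 set. With the replicate number as a block, 273 genes were called in the Med23 set, 90 in the Runx2 set and 136 for the difference. Of the members, 1 was called in the Med23 set and 0 in the Runx2 set under the block, and of the other vessel genes 7 and 1.

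Depth limits *Gja5* most, which rested on 13 to 41 fragments.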

Other observations

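Other cell types moved between the libraries too. Of 10 skeletal muscle genes, 0 were called in the Med23 set, where their median log2 fold change was 2.99, and 9 were called lower in the Runx2 set, with a median of -4.76 (limma). Of 10 osteoblast genes, *Bglap* (osteocalcin) was called lower in the Med23 set (-1.95 ± 0.32, adjusted p = 0.0401, limma) and none was called in the Runx2 set. Of 6 cartilage genes, *Col2a1* was called lower in the Med23 set (-0.86 ± 0.14, adjusted p = 0.0404, limma), and the list's median was -0.81 in that set and 0.53 in the other.

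No gene was called in the erythroid list (medians -0.43 and -1.08), the haematopoietic list (-0.23 and -0.39), the platelet list (0.19 and -0.01), the neural list (0.45 and 0.11) or the proliferation list (0.32 and -0.36), in the Med23 and Runx2 sets respectively. The medians of the proliferation list had opposite signs, as did those of muscle and cartilage, and the difference between sets was called for none of their genes. *Krt10*, the only epidermal gene tested, had 0.29 ± 0.14 and 0.33 ± 0.14.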
